A study of Mus musculus with 64 samples.

Results

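The 60 genes described here lie on mouse chromosome 15 within about 2.5 Mb of Csnk1e, the gene targeted in the study. They were chosen by position, with earlier results of these data known. The list holds 60 of the 23420 genes counted in each library. Of the members, 30 lie on the centromere side of Csnk1e and 30 on the telomere side, from Myh9 at 1576 kb toward the centromere to Rangap1 at 2249 kb toward the telomere. Another 64 genes of the files lie in the same window and are outside the list, so it is not every gene of the window. Every member had reads in every library, with a lowest count of 5, and all 60 passed the filter on low counts. Their mean levels ran from 0.543 CPM (gene reads relative to the library total, with TMM-scaled library sizes) to 663 CPM, with a median of 42.4 CPM.

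The series compared striatal tissue of mice labelled Csnk1e knockout with that of mice labelled wild type. There were 8 mice under each label, all about 50 days old and naive, and each mouse gave 1 poly(A) library from pooled punches of both hemispheres, sequenced on 4 lanes. The sources used here give neither the strain, nor how the allele was made, nor which part of Csnk1e was deleted. The labels name separate mice, and the libraries held 22088005 to 30238947 gene reads. In bulk tissue, fewer cells of a type and less RNA per cell cannot be told apart.

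Csnk1e encodes casein kinase 1 epsilon, a kinase that phosphorylates the PERIOD proteins of the circadian clock. A targeted allele is often made in embryonic stem cells of one mouse strain and then crossed into another. DNA of the first strain that is linked to the allele can travel with it through the crosses, and genes in such a segment can carry other sequence variants than their counterparts on the chromosome it replaced. The neighbours of a targeted gene can thus differ in level between genotypes through their own variants. A comparison ordered by position shows whether differences gather around the target.

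Csnk1e levels cut across the labels. Mice labelled knockout 1 to 8 had Csnk1e at 71.4, 75.5, 77.3, 76.8, 79.6, 37.9, 44.7 and 39.2 CPM. Mice labelled wild type 1 to 8 had it at 42.7, 45.2, 42.1, 84.0, 78.1, 86.4, 71.7 and 42.9 CPM. Both labels thus held low and high libraries, and no library lay between 45.2 and 71.4 CPM. The labelled knockouts averaged 62.8 ± 18.6 CPM and the labelled wild types 61.6 ± 20.2 CPM (SD, n = 8 each). The log2 fold change was 0.03, and its 95% interval ran from -0.40 to 0.45.

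The members were therefore compared in both ways. A library under 58 CPM of Csnk1e is called low-Csnk1e and one over it high-Csnk1e. The 7 low-Csnk1e libraries were those labelled knockout 6, 7 and 8 and wild type 1, 2, 3 and 8, and the 9 high-Csnk1e libraries were those labelled knockout 1 to 5 and wild type 4 to 7. Csnk1e averaged 42.1 ± 2.67 CPM in the low-Csnk1e libraries (SD, n = 7) and 77.8 ± 5.01 CPM in the high-Csnk1e libraries (SD, n = 9), which describes how the libraries were divided and is not a result. These sets are defined by a measured level, so neither is a genotype, and p-values between them say only how other genes go with that level. Which label goes with which level changes along the library numbers: among library numbers 1 to 8 the 3 low-Csnk1e libraries are all labelled wild type and the 5 high-Csnk1e libraries all labelled knockout, while among library numbers 9 to 17 3 of the 4 low-Csnk1e libraries carry the knockout label and the 4 high-Csnk1e libraries are all labelled wild type.

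The libraries labelled knockout 1 and wild type 7, both high-Csnk1e, stood apart in RNA of the choroid plexus. Ttr, the choroid plexus transthyretin gene, reached 1466 and 2132 CPM there, against 1.15 to 122 CPM in the other libraries. The summed level of the 7 tested choroid plexus genes was 18.8 to 142.9 CPM in low-Csnk1e libraries and 13.4 to 2353 CPM in high-Csnk1e libraries, and 6 of the 7 had an unadjusted p under 0.05, all with negative log2 fold changes. The median of the summed level went the other way, at 27.6 CPM in low-Csnk1e libraries and 16.7 CPM in high-Csnk1e libraries. The library labelled knockout 3 held both Xist, at 1156 CPM, and the Y-linked Ddx3y, at 6.97 CPM. Of the other libraries, 4 had Xist at 1189 to 1485 CPM and Ddx3y at 0.163 to 0.873 CPM, and 11 had Xist at 1.44 to 11.1 CPM and Ddx3y at 62.8 to 88.1 CPM. Of the 4, 1 was low-Csnk1e and 3 were high-Csnk1e, and of the 11, 6 were low-Csnk1e and 5 high-Csnk1e. The 9 tested striatal projection neuron genes summed to 4678 to 6907 CPM in low-Csnk1e libraries and 4439 to 7574 CPM in high-Csnk1e libraries, and 0 of 9 had an unadjusted p under 0.05. None of the genes tested from the other 7 cell type lists reached an adjusted p under 0.05, 1 endothelial gene had an unadjusted p under 0.05, and every marker tested had reads. Signs ran mostly 1 way in 3 lists. All 8 oligodendrocyte and all 5 ependymal genes were higher in low-Csnk1e libraries (median log2 fold changes 0.11 and 0.14), and 1 of 6 mural genes was (median -0.08). In each of the 4 remaining lists 3 genes were higher. Whether the members' differences go with these signs was not tested.

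Pla2g6 and Card10 had the largest positive differences among the members, and their promoters are shown for that reason. Both windows are RefSeq sequences of GRCm38.p6, from 250 bases before to 50 bases after the annotated start, read on the minus strand. The Pla2g6 window is chr15:79328322-79328621 and the Card10 window is chr15:78802993-78803292. Capitals mark the GC box (GGGCGG or its reverse complement CCGCCC) and the CCAAT box (CCAAT or its reverse complement ATTGG).
Pla2g6: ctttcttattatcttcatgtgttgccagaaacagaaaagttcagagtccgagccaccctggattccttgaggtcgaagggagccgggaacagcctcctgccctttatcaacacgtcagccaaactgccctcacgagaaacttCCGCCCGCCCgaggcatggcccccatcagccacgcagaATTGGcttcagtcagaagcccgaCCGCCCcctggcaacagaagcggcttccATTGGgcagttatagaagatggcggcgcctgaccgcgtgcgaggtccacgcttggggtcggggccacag
Card10: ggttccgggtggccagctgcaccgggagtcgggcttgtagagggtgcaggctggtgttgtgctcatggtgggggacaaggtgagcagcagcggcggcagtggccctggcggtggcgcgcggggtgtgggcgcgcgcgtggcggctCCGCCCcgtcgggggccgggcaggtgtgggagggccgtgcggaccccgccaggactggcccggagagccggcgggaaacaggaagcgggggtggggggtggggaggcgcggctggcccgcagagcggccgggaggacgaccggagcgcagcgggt
The Pla2g6 window holds 3 GC boxes, of which the first 2 overlap, and 2 CCAAT boxes, at a GC content of 59%. The Card10 window holds 1 GC box and no CCAAT box, at a GC content of 77%. Neither holds the E-box CACGTG. RefSeq windows were matched for 50 of the 60 members, 64 windows in all. A GC box stood in 67.2% of these and in 35.7% of all 32851 windows, a CCAAT box in 35.9% of the members' windows and 37.4% of all, and an E-box in 7.81% of the members' windows and 7.15% of all. Some members have more than 1 window, and all members passed the filter on low counts. Whether other genes that passed that filter have similar shares was not tested. A match describes the letters in the window and is not a bound site.

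Of the 60 members, 1 was called between low-Csnk1e and high-Csnk1e libraries at an adjusted p under 0.05 (edgeR's quasi-likelihood test with Benjamini-Hochberg adjustment over 15516 genes), where 0.0644% of all genes were called. That gene was Pla2g6, which was higher in low-Csnk1e libraries. At an unadjusted p under 0.05 there were 11 members, 18.3% of the list, against 3.59% of all genes. Without the library labelled knockout 8 there were 14 members, 23.3%, against 9.55% of all genes. Of the 11, 6 had a positive and 5 a negative log2 fold change, low-Csnk1e minus high-Csnk1e. The median log2 fold change over the 60 members was 0.01 and the median absolute one 0.06, against 0.00 and 0.05 over all genes. The sign was positive for 32 members and negative for 28.

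**Figure D1:**
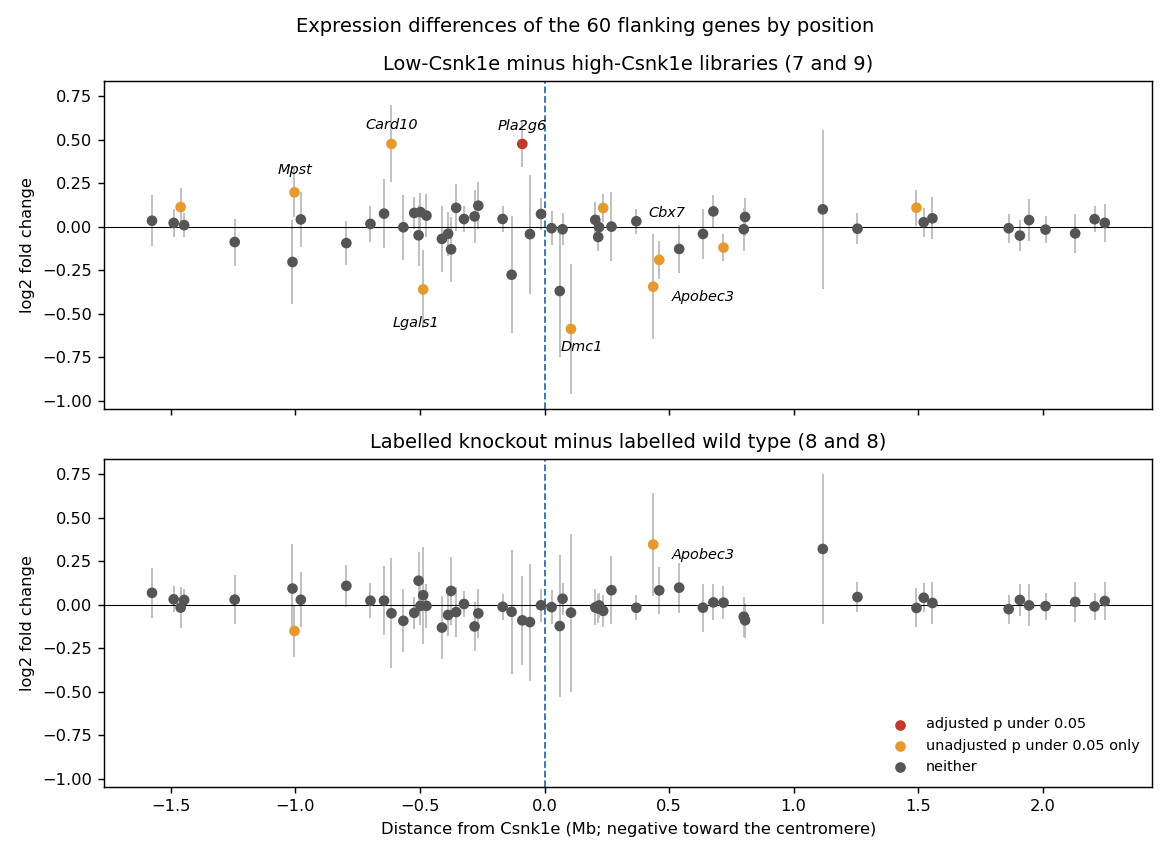
Log2 fold change of each of the 60 members (y axis) by its distance from Csnk1e in Mb (x axis, negative toward the centromere, dashed line at Csnk1e), in low-Csnk1e minus high-Csnk1e libraries (top) and labelled knockout minus labelled wild type (bottom). Points are estimates and bars 95% intervals. Pla2g6 is the one red point of the top panel, at 0.47, and no member was called in the bottom panel.

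Pla2g6 encodes a calcium-independent phospholipase A2 that frees fatty acids from membrane phospholipids, and its loss in humans causes infantile neuroaxonal dystrophy. The gene lies on the minus strand from 79286228 to 79328390, 89.5 kb from Csnk1e on the centromere side. In low-Csnk1e libraries it stood at 23.7, 24.7 and 21.5 CPM in those labelled knockout 6, 7 and 8 and at 25.2, 22.7, 24.8 and 26.0 CPM in those labelled wild type 1, 2, 3 and 8. In high-Csnk1e libraries it stood at 16.5, 18.4, 18.7, 15.4 and 17.9 CPM in those labelled knockout 1 to 5 and at 20.6, 15.3, 18.1 and 15.1 CPM in those labelled wild type 4 to 7. Every low-Csnk1e library was above every high-Csnk1e library, whatever its label. The means were 24.1 ± 1.57 CPM in low-Csnk1e libraries (SD, n = 7) and 17.3 ± 1.87 CPM in high-Csnk1e libraries (SD, n = 9), a 1.39-fold difference.

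The log2 fold change of Pla2g6 was 0.47 with a standard error of 0.06 and a 95% interval from 0.34 to 0.61 (adjusted p = 0.00173, edgeR's quasi-likelihood test). An exact two-sided permutation test over all 11440 assignments of the 16 mice gave p = 8.74e-05, the smallest this design can give. Its rank by p among all genes tested was 4. Of the members, Pla2g6 alone had groups that did not overlap, while over all genes this held for 0.0644%. The call remained in each of 16 fits that left out 1 mouse, and at 0.44 without the libraries labelled knockout 1 and wild type 7 (adjusted p = 0.0140, edgeR's quasi-likelihood test).

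**Figure D2:**
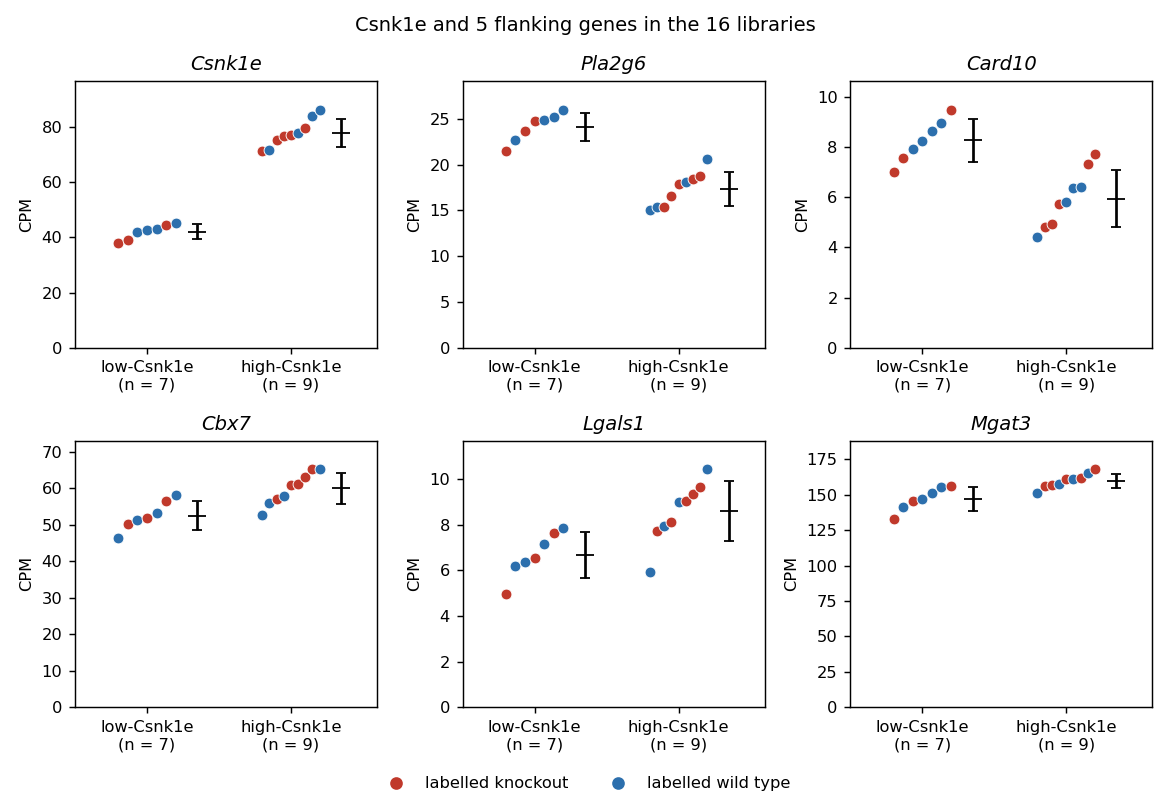
CPM (y axis) of Csnk1e and 5 members in 7 low-Csnk1e and 9 high-Csnk1e libraries (x axis), with 1 point per library coloured by its label and, beside the points, the mean with 1 SD. Pla2g6 is apart in the 2 sets, at 21.5 to 26.0 CPM in low-Csnk1e and 15.1 to 20.6 CPM in high-Csnk1e libraries, while the points of Card10, Cbx7, Lgals1 and Mgat3 overlap.

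Card10 encodes a scaffold protein that links receptors to NF-kB activation. The gene lies 615 kb from Csnk1e on the centromere side, from 78775138 to 78803042 on the minus strand. It stood at 7.02 CPM at the lowest, 8.27 at the median and 9.51 at the highest in low-Csnk1e libraries, against 4.41, 5.83 and 7.72 CPM in high-Csnk1e libraries. The 2 sets overlapped between 7.02 and 7.72 CPM. The means were 8.28 ± 0.85 CPM in low-Csnk1e libraries (SD, n = 7) and 5.95 ± 1.13 CPM in high-Csnk1e libraries (SD, n = 9). Its log2 fold change of 0.48, with a standard error of 0.11 and a 95% interval from 0.25 to 0.70, was as large as that of Pla2g6 and was not called (adjusted p = 0.227, edgeR's quasi-likelihood test). DESeq2 called it, with an adjusted p of 0.0174.

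The members nearest to Csnk1e were not called. Tmem184b, which encodes a membrane protein needed for normal axon degeneration in mice, lies 14.3 kb away on the centromere side and averaged 74.4 ± 4.29 CPM in low-Csnk1e libraries (SD, n = 7) and 70.8 ± 4.12 CPM in high-Csnk1e libraries (SD, n = 9). Its 95% interval ran from -0.02 to 0.16 on the log2 scale. Kcnj4, an inward rectifier potassium channel gene of forebrain neurons, lies 28.1 kb away on the telomere side and averaged 171.3 ± 7.03 CPM in low-Csnk1e libraries and 172.4 ± 14.0 CPM in high-Csnk1e libraries, with an interval from -0.11 to 0.09. These are the immediate neighbours in the list, and both sets overlapped for each.

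Further out on the same 2 sides, Maff and Kdelr3 rested on few reads. Maff, a small Maf transcription factor gene at 58.8 kb, had 11 to 25 reads per library and averaged 0.65 ± 0.14 CPM in low-Csnk1e libraries (SD, n = 7) and 0.68 ± 0.12 CPM in high-Csnk1e libraries (SD, n = 9). Kdelr3, a receptor gene for return of proteins to the endoplasmic reticulum at 60.8 kb, had 8 to 20 reads and averaged 0.47 ± 0.10 CPM in low-Csnk1e libraries and 0.60 ± 0.13 CPM in high-Csnk1e libraries. Its log2 fold change of -0.37 had an interval from -0.75 to 0.01, so a lower level by as much as the lower bound could not be told from no difference. Ddx17, an RNA helicase gene and the most abundant member, starts 72.2 kb away and overlaps Kdelr3 by 4 bases on the other strand. It averaged 658.9 ± 33.1 CPM in low-Csnk1e libraries and 665.7 ± 39.3 CPM in high-Csnk1e libraries, with an interval from -0.11 to 0.08.

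On the centromere side, members between Pla2g6 and Lgals1 covered roles from endocytic recycling to transcription. Pick1, which regulates AMPA receptor trafficking, averaged 43.6 ± 1.93 CPM in low-Csnk1e libraries (SD, n = 7) and 42.3 ± 1.47 CPM in high-Csnk1e libraries (SD, n = 9). Polr2f, a subunit gene of RNA polymerases, averaged 23.0 ± 2.00 CPM in low-Csnk1e libraries and 21.2 ± 2.09 CPM in high-Csnk1e libraries, and Eif3l, a translation initiation factor gene, 58.9 ± 1.88 CPM in low-Csnk1e libraries and 57.2 ± 2.59 CPM in high-Csnk1e libraries. The linker histone gene H1f0 averaged 92.8 ± 8.93 CPM in low-Csnk1e libraries and 95.5 ± 7.87 CPM in high-Csnk1e libraries. None of these had an unadjusted p under 0.05.

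Lgals1, which encodes the sugar-binding lectin galectin-1, lies 487 kb away and had a log2 fold change of -0.36 at an unadjusted p of 0.00323 (adjusted p = 0.990, edgeR's quasi-likelihood test). It stood at 4.95 to 7.85 CPM with a median of 6.53 in low-Csnk1e libraries, against 5.93 to 10.4 CPM with a median of 8.98 in high-Csnk1e libraries. Farther out, beyond Card10, Mfng, a glycosyltransferase gene that modifies Notch, averaged 4.59 ± 0.26 CPM in low-Csnk1e libraries and 4.37 ± 0.70 CPM in high-Csnk1e libraries. Cyth4, a guanine nucleotide exchange factor gene of ARF proteins, averaged 14.2 ± 1.46 CPM in low-Csnk1e libraries and 15.2 ± 0.89 CPM in high-Csnk1e libraries.

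The paired sulfurtransferase genes Mpst and Tst lie about 1 Mb from Csnk1e and had differences of opposite sign. Mpst, whose enzyme makes hydrogen sulfide from mercaptopyruvate, averaged 25.4 ± 2.98 CPM in low-Csnk1e libraries (SD, n = 7) and 22.2 ± 1.66 CPM in high-Csnk1e libraries (SD, n = 9), a log2 fold change of 0.20 at an unadjusted p of 0.00798 (adjusted p = 0.990, edgeR). Tst, the rhodanese gene, averaged 22.0 ± 2.08 CPM in low-Csnk1e libraries and 25.4 ± 5.08 CPM in high-Csnk1e libraries, a log2 fold change of -0.20 at an unadjusted p of 0.0977. At the centromere end of the list, Foxred2, a flavoprotein gene of protein quality control in the endoplasmic reticulum, had a log2 fold change of 0.11 (unadjusted p = 0.0415, adjusted p = 0.990, edgeR). The outermost member, Myh9, a non-muscle myosin heavy chain gene, averaged 97.0 ± 7.49 CPM in low-Csnk1e libraries and 94.7 ± 11.7 CPM in high-Csnk1e libraries with an interval from -0.11 to 0.18.

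On the telomere side the 3 members with the smallest p, Cbx7, Dmc1 and Mgat3, had negative log2 fold changes. Dmc1, a recombinase gene of meiosis with 15 to 50 reads per library, had the largest absolute difference of the 60 and stood at 0.59 to 1.19 CPM in low-Csnk1e libraries, against 0.93 to 1.69 CPM in high-Csnk1e libraries. Its log2 fold change was -0.59 with a standard error of 0.18, at an unadjusted p of 0.00381 (adjusted p = 0.990, edgeR). Cbx7, a chromodomain gene of the Polycomb repressive complex, stood at 46.4 to 58.3 CPM in low-Csnk1e libraries, against 52.8 to 65.3 CPM in high-Csnk1e libraries. Its log2 fold change was -0.19 with a standard error of 0.05 (unadjusted p = 0.00164, adjusted p = 0.747, edgeR). For Cbx7 the difference was -0.29 within library numbers 1 to 8 and -0.10 within 9 to 17, with standard errors of 0.06 and 0.08. Cbx6, the neighbour of Cbx7 and another gene of that family, averaged 543.9 ± 17.3 CPM in low-Csnk1e libraries and 532.4 ± 20.5 CPM in high-Csnk1e libraries, with an unadjusted p of 0.388 (edgeR).

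Apobec3, a cytidine deaminase gene that restricts retroviruses, overlaps Cbx7 by 100 bases on the other strand. It stood at 1.69 to 3.02 CPM in low-Csnk1e libraries, against 2.26 to 4.17 CPM in high-Csnk1e libraries, from 37 to 108 reads per library. Its log2 fold change was -0.34 (unadjusted p = 0.0267, adjusted p = 0.990, edgeR). Within library numbers 1 to 8 it was -0.60 with a standard error of 0.19, and within 9 to 17 it was -0.03 with a standard error of 0.17. It was -0.49 within the labelled knockouts and -0.12 within the labelled wild types. Mgat3, which encodes the enzyme that adds bisecting N-acetylglucosamine to glycoproteins, averaged 147.1 ± 8.46 CPM in low-Csnk1e libraries and 159.9 ± 5.05 CPM in high-Csnk1e libraries, a log2 fold change of -0.12 (unadjusted p = 0.00389, adjusted p = 0.990, edgeR). The GTP-binding protein gene Gtpbp1 and the purine synthesis gene Adsl each had a log2 fold change of 0.11, at unadjusted p-values of 0.0114 and 0.0384 (adjusted p = 0.990 for both, edgeR). Without the library labelled wild type 8, which had the highest Adsl level, the difference of Adsl was 0.07 at an unadjusted p of 0.120 (edgeR).

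The stress response factor gene Atf4, at 800 kb, averaged 94.9 ± 9.50 CPM in low-Csnk1e libraries (SD, n = 7) and 95.9 ± 7.14 CPM in high-Csnk1e libraries (SD, n = 9). Syngr1, a synaptic vesicle protein gene, averaged 442.8 ± 33.0 CPM in low-Csnk1e libraries and 455.8 ± 51.0 CPM in high-Csnk1e libraries. From 1.5 Mb to the telomere end none of the 9 members had an unadjusted p under 0.05. These include the ubiquitin ligase subunit gene Rbx1, the acetyltransferase gene Ep300 and the SRF coactivator gene Mkl1. Rangap1, the outermost gene there and the activator of the Ran GTPase, averaged 175.2 ± 12.5 CPM in low-Csnk1e libraries and 172.6 ± 12.8 CPM in high-Csnk1e libraries with an interval from -0.09 to 0.13.

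**Figure D3:**
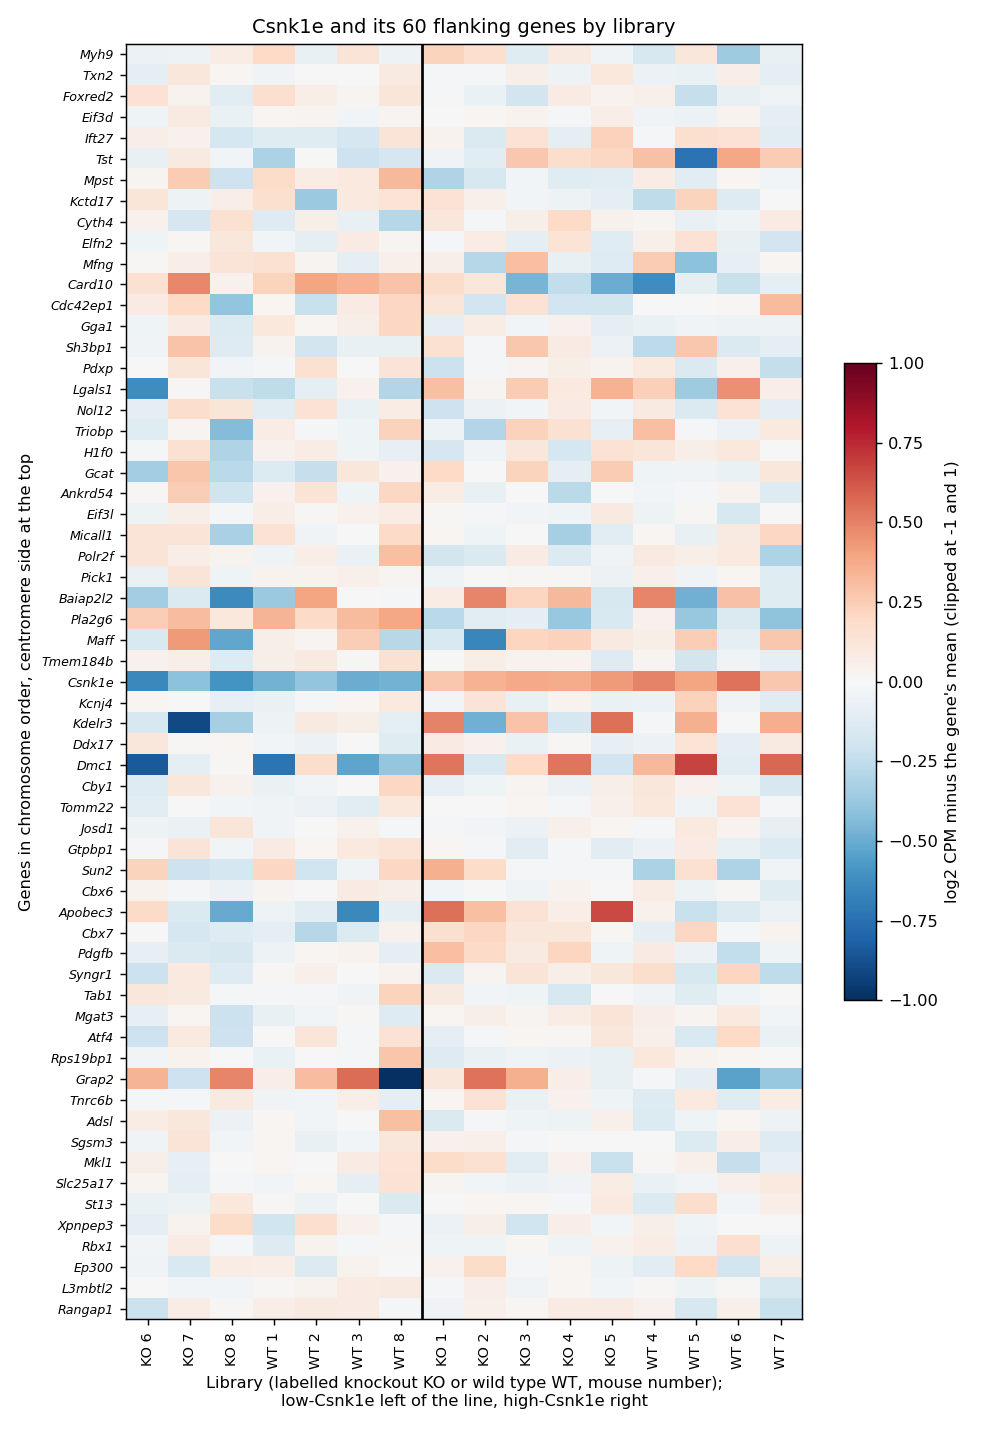
Log2 CPM minus the gene's mean over the 16 libraries (colour, clipped at -1 and 1) for Csnk1e and the 60 members in chromosome order, centromere side at the top, with 7 low-Csnk1e libraries left of the line and 9 high-Csnk1e libraries right of it. The Csnk1e row divides at the line by construction, the Pla2g6 row divides there with the opposite colours, and most rows show no such step.

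The intervals limit what the other members could have done. Among the 59 members that were not called, the 95% interval lay inside a 1.25-fold difference in either direction for 49 and inside a 1.5-fold difference for 54. The remaining 5 were Card10, Baiap2l2, Kdelr3, Dmc1 and Apobec3. Of these, all but Card10 averaged under 3 CPM in both sets.

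Under the labels, edgeR's quasi-likelihood test called 0 of the 60 members, where 0% of 15446 genes were called, and DESeq2 and limma-voom also called 0. At an unadjusted p under 0.05 there were 2 members (3.33%), against 3.41% of all genes. Leaving out 1 mouse gave 0 to 4 members. Without knockout 7 there were 4 members (6.67%), against 5.88% of all genes. Without wild type 5 there were also 4, against 4.69% of all genes. Without knockout 1, knockout 5 or wild type 3 there were 0, against 2.58%, 4.27% and 3.41% of all genes. Apobec3 averaged 3.03 ± 0.75 CPM in the labelled knockouts and 2.39 ± 0.31 CPM in the labelled wild types (SD, n = 8 each), a log2 fold change of 0.35 (unadjusted p = 0.0249, adjusted p = 0.997, edgeR). Mpst averaged 22.3 ± 2.75 CPM in the labelled knockouts and 24.9 ± 2.34 CPM in the labelled wild types, with a log2 difference of -0.15 (unadjusted p = 0.0461, adjusted p = 0.997, edgeR). The next smallest p was that of Rps19bp1, a ribosomal protein binding partner gene, which averaged 12.6 ± 0.45 CPM in the labelled knockouts and 13.5 ± 1.03 CPM in the labelled wild types (unadjusted p = 0.0769, adjusted p = 0.997, edgeR). Pla2g6 averaged 19.6 ± 3.35 CPM in the labelled knockouts and 21.0 ± 4.42 CPM in the labelled wild types, with a log2 interval from -0.35 to 0.17. The interval lay inside a 1.25-fold difference for 50 of the 60 members and inside a 1.5-fold difference for 58.

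The difference by Csnk1e level was also taken within each label, where no library is shared. For Pla2g6 it was 0.42 with a standard error of 0.08 within the labelled knockouts (3 low-Csnk1e and 5 high-Csnk1e libraries) and 0.51 with a standard error of 0.10 within the labelled wild types (4 and 4). For Card10 it was 0.40 and 0.55, with standard errors of 0.17 and 0.12. Within library numbers 1 to 8 and 9 to 17 Pla2g6 differed by 0.48 and 0.47, and Card10 by 0.48 and 0.48. No member was called in any of these 4 smaller sets; the adjusted p of Pla2g6 was 0.572, 0.685, 0.362 and 0.991 in them (edgeR).

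Signs matched between the labelled knockouts and the labelled wild types for 40 of the 60 members (66.7%), against 50.3% of 15386 genes. Between library numbers 1 to 8 and 9 to 17 they matched for 44 members (73.3%), against 51.5% of 15432 genes. Across the 60 members the log2 fold changes of the 2 labels had a Pearson r of 0.68, and those of the 2 sets of library numbers an r of 0.70. Over all genes r was 0.24 in both cases. Without Pla2g6 and Card10 the members' r was 0.58 and 0.59. These are descriptions across genes, which share their libraries and are not independent replicates. They were not set beside the rest of chromosome 15, so whether the agreement is particular to the members was not tested. Pla2g6 and Card10 were the only members with an unadjusted p under 0.05 and the same sign within both labels, which held for 36 of 15386 genes in all. Between the 2 sets of library numbers the members were Card10, Lgals1 and Pla2g6, and 28 of 15432 genes in all. Both splits divide the same libraries that gave the differences over all mice. They are thus independent neither of those differences nor of each other.

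**Figure D4:**
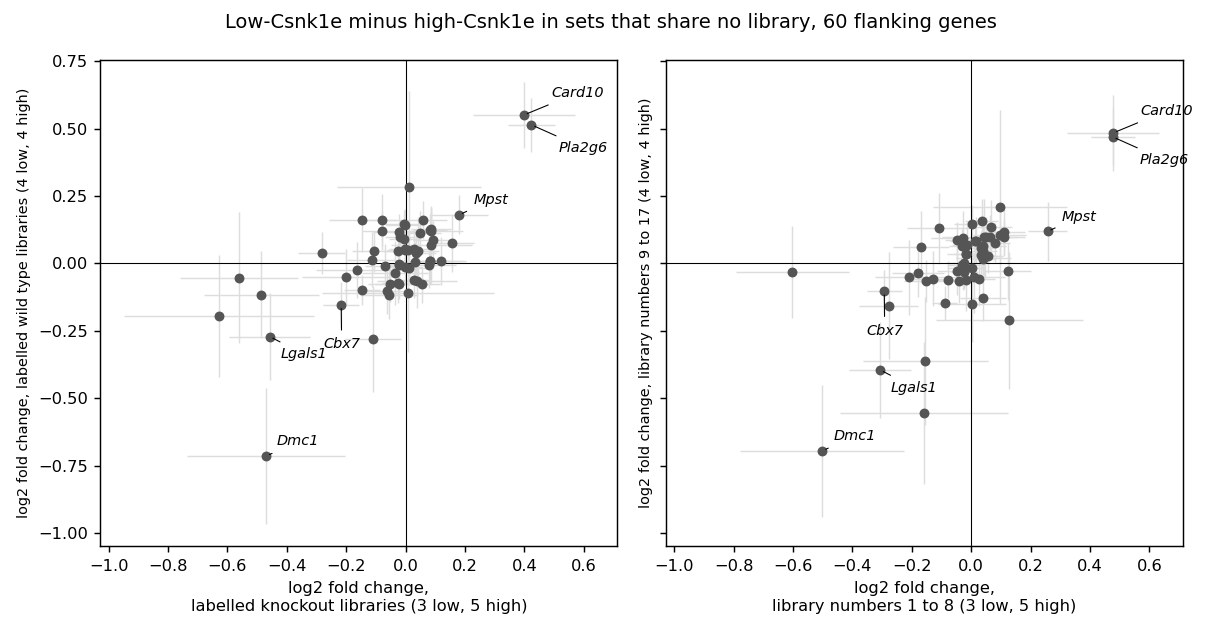
Log2 fold change, low-Csnk1e minus high-Csnk1e, of the 60 members in 2 sets of libraries with none in common: labelled knockout on the x axis and labelled wild type on the y axis (left), and library numbers 1 to 8 on the x axis and 9 to 17 on the y axis (right). Points are members and bars 1 standard error. Pla2g6 and Card10 lie at the upper right of both panels, between 0.40 and 0.55.

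Whether the difference by Csnk1e level itself differed between the labels was tested with an interaction term. Of the 60 members edgeR called 0, where 0% of 15902 genes were called, and DESeq2 and limma-voom called 0 members. Pdgfb, a platelet-derived growth factor gene, was the one member with an unadjusted p under 0.05, against 3.96% of all genes. Its difference was -0.28 within the labelled knockouts and 0.04 within the labelled wild types (interaction p = 0.00906, adjusted p = 1.00, edgeR). For Pla2g6 the interaction was -0.10 with an unadjusted p of 0.468.

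The same comparison over chromosome 15 shows how far such differences extend. Of the 10 genes called by Csnk1e level, 9 lie on chromosome 15, 4 higher and 5 lower in low-Csnk1e libraries. Only 3 of these lie within 2.5 Mb of Csnk1e: Pla2g6 and the non-members Lgals2 and Rpl3. Lgals2, a galectin gene 0.562 Mb toward the centromere, stood at 0.63 to 1.05 CPM in low-Csnk1e libraries, against 0.04 to 0.30 CPM in high-Csnk1e libraries. These levels rest on few reads, 17 to 24 per low-Csnk1e library and 1 to 7 per high-Csnk1e library. Lgals2 did not pass the filter on low counts in the comparison by label. Rpl3, a ribosomal protein gene 0.622 Mb toward the telomere, stood at 447.9 to 509.2 CPM in low-Csnk1e libraries, against 535.9 to 631.4 CPM in high-Csnk1e libraries. The farthest called gene on the chromosome, Spag1, lies 43.2 Mb from Csnk1e. Mesp2, the called gene outside chromosome 15, lies on chromosome 7 and had the smallest p of all genes tested (adjusted p = 4.15e-07, edgeR's quasi-likelihood test). Its level was 2.01 to 2.88 CPM in low-Csnk1e libraries, from 44 to 70 reads, against 0.27 to 0.76 CPM in high-Csnk1e libraries, from 7 to 20 reads.

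Genes with an unadjusted p under 0.05 were more frequent on chromosome 15 than elsewhere, with 83 of 608 (13.7%) against 470 of 14853 on other chromosomes (3.16%). The second share depended on single libraries: without that labelled knockout 8 it was 9.19%, beside 18.2% on chromosome 15, and without that labelled wild type 8 it was 2.03%. Among members the share was 1 of 6 within 0.1 Mb of Csnk1e, 5 of 21 from 0.1 to 0.5 Mb, 2 of 14 from 0.5 to 1 Mb, 3 of 9 from 1 to 1.5 Mb and 0 of 10 beyond. Among the 37 other tested genes of the window it was 7 (18.9%). Beyond the window it was 65 of 511 (12.7%). Neither of these shares was tested against that of the members, 18.3%.

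**Figure D5:**
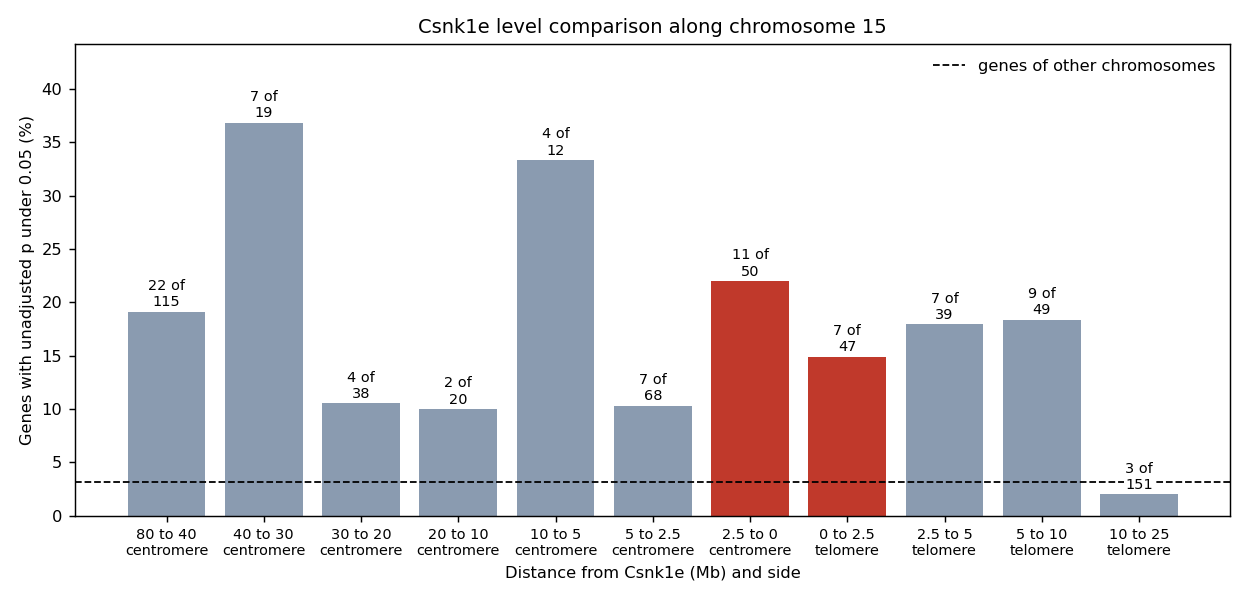
Share of tested chromosome 15 genes with an unadjusted p under 0.05 by Csnk1e level (y axis, percent) by distance from Csnk1e in Mb and side (x axis), with the 2 bins around Csnk1e in red. The number of such genes and of genes tested stands above each bar, and the dashed line is the share on other chromosomes, 3.16%. The share is 22.0% and 14.9% in the red bins and 1.99% in the outermost bin toward the telomere. It is highest away from Csnk1e, in 2 bins of few genes toward the centromere: 36.8% of 19 genes from 30 to 40 Mb and 33.3% of 12 genes from 5 to 10 Mb.

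Toward the telomere such genes numbered 7 of 47 genes within 2.5 Mb, 7 of 39 from 2.5 to 5 Mb, 9 of 49 from 5 to 10 Mb and 3 of 151 beyond. Toward the centromere they numbered 11 of 50 within 2.5 Mb, 7 of 68 from 2.5 to 5 Mb, 4 of 12 from 5 to 10 Mb, 2 of 20 from 10 to 20 Mb, 4 of 38 from 20 to 30 Mb, 7 of 19 from 30 to 40 Mb and 22 of 115 beyond. With both sides joined the share was 1 of 25 from 1.5 to 2.5 Mb, the outer edge of the window, and it was higher again from 2.5 to 5 Mb, at 14 of 107 genes.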

How the data were processed

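Striatal RNA of 16 mice was read from 64 deposited files, 1 per mouse and lane, each with whole-number read counts of 23420 genes made by the authors. Per the submitters' processing notes the build was mm10 and the tools were HTSeq 0.6.1p1, TopHat2 2.0.0, edgeR 2.14 and FastQC 0.10.1. The sources used here do not give the strand setting of the counting, and reads of overlapping genes may not be told apart; 18 members overlap another counted gene. Reads in no gene (18.0% to 19.8%), ambiguous (0.765% to 0.834%) and not unique (21.1% to 22.9%) were left out.

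The chi-square between lanes of a mouse was 1.00 to 1.03 per degree of freedom, and lanes were summed; the mouse was the replicate. Reads carry no molecular identifiers, so the spread between mice was used as the error. Positions came from GENCODE M21 and RefSeq on GRCm38, the assembly mm10 names.

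Counts were tested with edgeR 4.0.16 in R 4.3.3 (quasi-likelihood, TMM, filterByExpr, two-sided), by Csnk1e level and by label, with Benjamini-Hochberg adjustment over all genes. Csnk1e was left out of the level comparison. Levels are CPM on TMM-scaled sizes of the genes kept there. Standard errors were taken from the F statistics. The exact permutation test used mean log2 CPM with a prior count of 2. The fit by Csnk1e level was tried on simulated counts drawn independently for each gene. In those counts genes did not vary together, unlike in tissue.

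The members and lists were chosen with earlier results of these data known. Genes named by rule were Csnk1e, called members, the 3 nearest members on each side, the outermost ones and the 3 with the smallest p by label. Others were named after their values were seen, among them the members with an unadjusted p under 0.05 by Csnk1e level other than Pla2g6, Apobec3 and Mpst. Alternatives were DESeq2 1.42.0, limma-voom 3.58.1, upper quartile and RLE scaling, other count filters, single flow cells, covariates, a replicate block, smaller sets and leaving out mice.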

Additional observations from a re-analysis of the deposited data

Results flagged for a closer look

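A library was flagged where its value stood far from the others of its group, judged by its gap to the nearest value over the group's range. Among 78 groups of Csnk1e and named members this held for 5, where chance gives about 1 in 20. Rangap1 was at 149.1 CPM in the library labelled knockout 6, the lowest of the low-Csnk1e libraries (next 171.3 CPM) and of the labelled knockouts (next 169.4 CPM). Apobec3 was at 1.69 CPM in the library labelled wild type 3, the lowest of the labelled wild types (next 2.26 CPM). Rps19bp1 was at 15.8 CPM in the library labelled wild type 8, the highest of the low-Csnk1e libraries (next 13.4 CPM). Adsl was at 30.8 CPM in the same library, the highest of the labelled wild types (next 25.4 CPM).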

How the results depend on the processing

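By Csnk1e level, 1 member and 10 genes in all were called. Pla2g6 was called and kept its sign under RLE and upper quartile scaling, limma-voom, both other count filters, each flow cell, the covariates, the continuous Csnk1e level and without the choroid plexus or mixed-sex libraries. DESeq2 called 2 members (Pla2g6 and Card10) and 20 genes. Each flow cell alone gave 6 genes. The labelled knockouts alone gave 0 members and 0 genes, the labelled wild types 0 and 1, library numbers 1 to 8 0 and 0, and numbers 9 to 17 0 and 5; these sets hold fewer samples. Leaving out 1 mouse gave 1 member each time and 7 to 12 genes.

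No pairing of the mice by number was seen in their levels. Of the 8 same-numbered pairs, 0 had deviations that correlated over 0.1 (-0.332 to 0.0859), and 0 of 8 knockouts matched their own number best. Such correlations cannot exclude a pairing. With the replicate block 0 members and 1 gene were called, and Pla2g6 differed by 0.48 (adjusted p = 0.800, edgeR). The block changed no call by label, where no fit called a gene.

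Of the 57 members tested in all 34 other level fits, 27 kept their sign in all of them; Kdelr3 and Grap2 kept it in the fits that tested them. Signs of values near 0 turned. Within the labelled knockouts Maff was 0.0078, Tmem184b -0.0029, Ddx17 0.0557, Myh9 -0.0785 and Rangap1 -0.079. With the replicate block Maff was 0.1946 and Kcnj4 0.0172, and within numbers 1 to 8 Maff was 0.1279. Without the choroid plexus libraries Ddx17 was 0.0076 and Rangap1 -0.0109, and with the continuous level they were 0.0052 and -0.0014. Without 1 mouse Maff ran from -0.1379 to 0.0275, Kcnj4 from -0.0257 to 0.0193, Ddx17 from -0.0361 to 0.0028, Myh9 from -0.0065 to 0.065 and Rangap1 from -0.0033 to 0.0572. By label, Csnk1e was -0.0181 with library number, -0.0215 without the mixed-sex library, -0.0777 with its level as covariate and -0.04 to 0.1087 without 1 mouse. The cause was not tested. The least abundant members are limited by counts as low as 5 reads.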
